A study of Xenopus laevis with 18 samples.

Results

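Nuclear receptors and the proteins that bind them were followed in explants of the lateral marginal zone (LMZ). This is the lateral part of the belt of the frog gastrula that gives rise to mesoderm. Members were the probe sets of an Affymetrix Xenopus laevis array whose single annotated gene symbol belongs to a nuclear receptor subfamily or to a named receptor coactivator, corepressor or interacting protein. This gave 57 probe sets of the 32475 tested, for 43 gene symbols, or 32 genes when the .L and .S homeologs of the allotetraploid genome are merged. They comprised 6 probe sets of retinoic acid (RA) receptors, 4 of retinoid X receptors, 32 of other nuclear receptors and 15 of coregulators or partners. The symbol rule also took in thrap3, an RNA-processing protein named for its association with the thyroid hormone receptor complex, which is no receptor. Of 39 receptor and coregulator genes looked for by name, 26 had a probe set with 1 symbol. The other 13, among them rarb, thrb and ncoa1, were not analysed here.

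Nuclear receptors are transcription factors that read small lipophilic ligands or, as orphan receptors, act without a known one. RA receptors bind DNA as heterodimers with retinoid X receptors, recruit corepressors such as Ncor1 when empty and exchange them for coactivators such as the Ncoa proteins when RA is bound. In vertebrate embryos RA patterns the trunk along its axis, and in Xenopus it is required for the pronephros field that arises in lateral mesoderm. Cyp26 enzymes break RA down, so their overexpression is used to deplete it.

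The 18 arrays formed 6 groups of 3, each array described as a biological replicate. The RA-depleted arm came from embryos that had received GFP and cyp26 RNA. The control arm had received GFP RNA alone, so GFP was common to both arms. Strain and genotype are not given in the sources used here. Injections went equatorially into all 4 blastomeres at the 4-cell stage, LMZ explants were cut at early gastrula, and they were collected after 1 h or 3 h at 20 °C (early gastrula and mid-gastrula) or after a night at 14 °C (early neurula). All blastomeres were injected, so the RNA was not confined to the LMZ, and in bulk explants fewer cells of a type and less RNA per cell cannot be told apart.

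Values are RMA log2 intensities, called levels here, with 1 unit equal to a doubling. Arrays of 1 group correlated at 0.987 to 0.993 across probe sets. The median level of an array was 5.85 to 5.91 for the early gastrula arrays, against 5.47 to 5.51 for those of both later stages. A probe set that reads cyp26a1.S, a homeolog of the RA-degrading enzyme, went against the arm labels. It averaged 9.12 ± 0.49 on early neurula arrays labelled RA-depleted, against 13.26 ± 0.24 on those labelled control (SD, n = 3 each), and lay about as far apart at both gastrula stages. Another probe set of cyp26a1.S (6.45 ± 0.67 against 5.06 ± 0.27) and that of cyp26a1.L (10.39 ± 0.72 against 8.86 ± 0.45) lay the other way round. Which of these probe sets detects the injected RNA is not given in the sources used here. The gene also stands in the list of RA-responsive genes read below. The number of cyp26a1 probe sets on each side therefore does not show which arm was depleted. The groups are therefore called "labelled RA-depleted" and "labelled control" throughout, and every arm difference below is labelled RA-depleted minus labelled control. Each of these signs would turn if the arms were exchanged.

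The labelled tissue was checked against 21 measured homeologs of lateral and intermediate mesoderm markers. At early neurula 11 of them averaged at least 6, among them lhx1.L (7.87), gata6.L (9.81), foxf1.L (7.41) and lmo2.S (9.73). Others of the list averaged under 6, among them hand1.L (5.17), hand2.L (4.20) and hand2.S (4.74). osr1.L went from 9.23 at early gastrula to 5.38 at early neurula, and gata4.S from 10.32 to 5.97. The pronephros and kidney markers pax8.L (4.29) and wt1.L (3.78) and the blood marker tal1.S (3.40) stayed dim, while the kidney marker pax2.L averaged 8.23. The other marker lists were also read at early neurula. Of paraxial mesoderm and muscle 19 of 21 homeologs averaged at least 6, of endoderm 14 of 19 and of neural plate 10 of 13. Of organizer and axial mesoderm 8 of 15 did so, and of epidermis 5 of 18. Paraxial mesoderm is mesoderm too, so its signal is not read as foreign tissue. Of the 14 endoderm homeologs 5, all of gata genes, also stand in the lateral mesoderm list, as does lhx1.L of the organizer list.

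The receptors covered the whole range of signal on the array. Over the 18 arrays 11 of the 57 probe sets averaged at least 8, among them probe sets of thrap3.S, rarg.S, ncoa5.S and rxrb.L, and 29 averaged under 5. Of the dim probe sets, 17 stayed under 5 on every array, where a probe set says little about its transcript. Levels of different probe sets are not compared, because probes differ in how they bind.

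The question put to the arms was whether depleting RA changes the expression of the receptors that read it and of their relatives. At early gastrula no receptor or coregulator passed the test. At mid-gastrula 1 probe set of ncoa2.S passed, as lower, only when same-numbered arrays of the 2 arms were compared as pairs. At early neurula 2 orphan receptors, nr5a2.S and esrra.L, were higher in explants labelled RA-depleted, beside 0.373% of all probe sets. Neither was called without pairs when the neurula arrays were fitted alone. With pairs over all arrays nr2f2.L, nr2f5.S, rara.L and ppara.S were also higher and rxra.L was lower, beside 2.47% and 1.86% of all probe sets. Of these, ppara.S lost its call when any 1 neurula pair was left out.

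At early gastrula 0 of 57 members passed in either direction at an adjusted p under 0.05, where 0% of all probe sets passed as higher and 0.00308% as lower. No member had an unadjusted p under 0.05 either. The differences ran between −0.20 (ncoa2.L) and 0.31 (nr4a1.L), and their median was 0.01, against 0.00 over all probe sets. The highest after nr4a1.L were rara.L (0.27) and nr2f6.L (0.24), and the lowest after ncoa2.L were nr5a2.L (−0.18) and ncoa2.S (−0.16). The count was 0 also with the replicate number as a block, where 0.00308% of all probe sets were called in each direction, and with same-numbered arrays as pairs, where 0.0185% were. Arms did not overlap for 2 members higher (nr3c1.S and rara.L) and 0 lower, beside 2.16% and 2.94% of all probe sets.

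At mid-gastrula 0 members passed, beside 0.0154% of all probe sets called higher and 0.00308% called lower, and 2 members had an unadjusted p under 0.05. These were rara.L, at a difference of 0.38 (SE 0.17), and the second probe set of ncoa2.S, a p160 coactivator that binds ligand-loaded receptors. That ncoa2.S probe set read 4.02, 4.26 and 3.96 on arrays labelled RA-depleted, against 4.56, 4.66 and 4.60 on arrays labelled control. All 3 values labelled RA-depleted lay below all 3 labelled control. The difference was −0.53 (SE 0.14, adjusted p = 1.00), and with pairs as a block its adjusted p was 0.0308, beside 0.108% of all probe sets called higher and 0.0801% called lower in that fit. The probe set is dim, and the other ncoa2.S probe set (difference −0.20) and ncoa2.L (−0.14) were not called. It was no longer called with pairs of the mid-gastrula arrays alone (adjusted p = 0.213) or with any 1 mid-gastrula pair left out (adjusted p = 0.0838, 0.147 and 0.140). With the replicate number as a block 0 members were called, beside 0.0339% and 0.00308% of all probe sets. Arms did not overlap for 1 member higher (nr2e1.S) and 2 lower (that ncoa2.S probe set and the second of nr6a1.S), beside 3.08% and 2.75% of all probe sets.

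At early neurula 2 of 57 members passed as higher and 0 as lower, beside 0.373% and 0.0523% of all probe sets, and 8 members had an unadjusted p under 0.05. The median difference of the members was 0.03, against −0.01 over all probe sets, and 37 of the 57 lay above 0. Fitting the replicate number as a block gave 4 higher and 0 lower, beside 0.81% and 0.329% of all probe sets. Fitting each same-numbered pair within a stage as a block gave 6 higher and 1 lower, beside 2.47% and 1.86%. Arms did not overlap on the 3 arrays each for 7 members higher and 3 lower, where 4.4% and 5.1% of all probe sets did the same. With the 6 early neurula arrays fitted alone 0 members were called without pairs (nr5a2.S at an adjusted p of 0.446) and 5 with them. The share of all probe sets called with these arrays alone is not given here, so the 5 cannot be set against it.

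**Figure D1:**
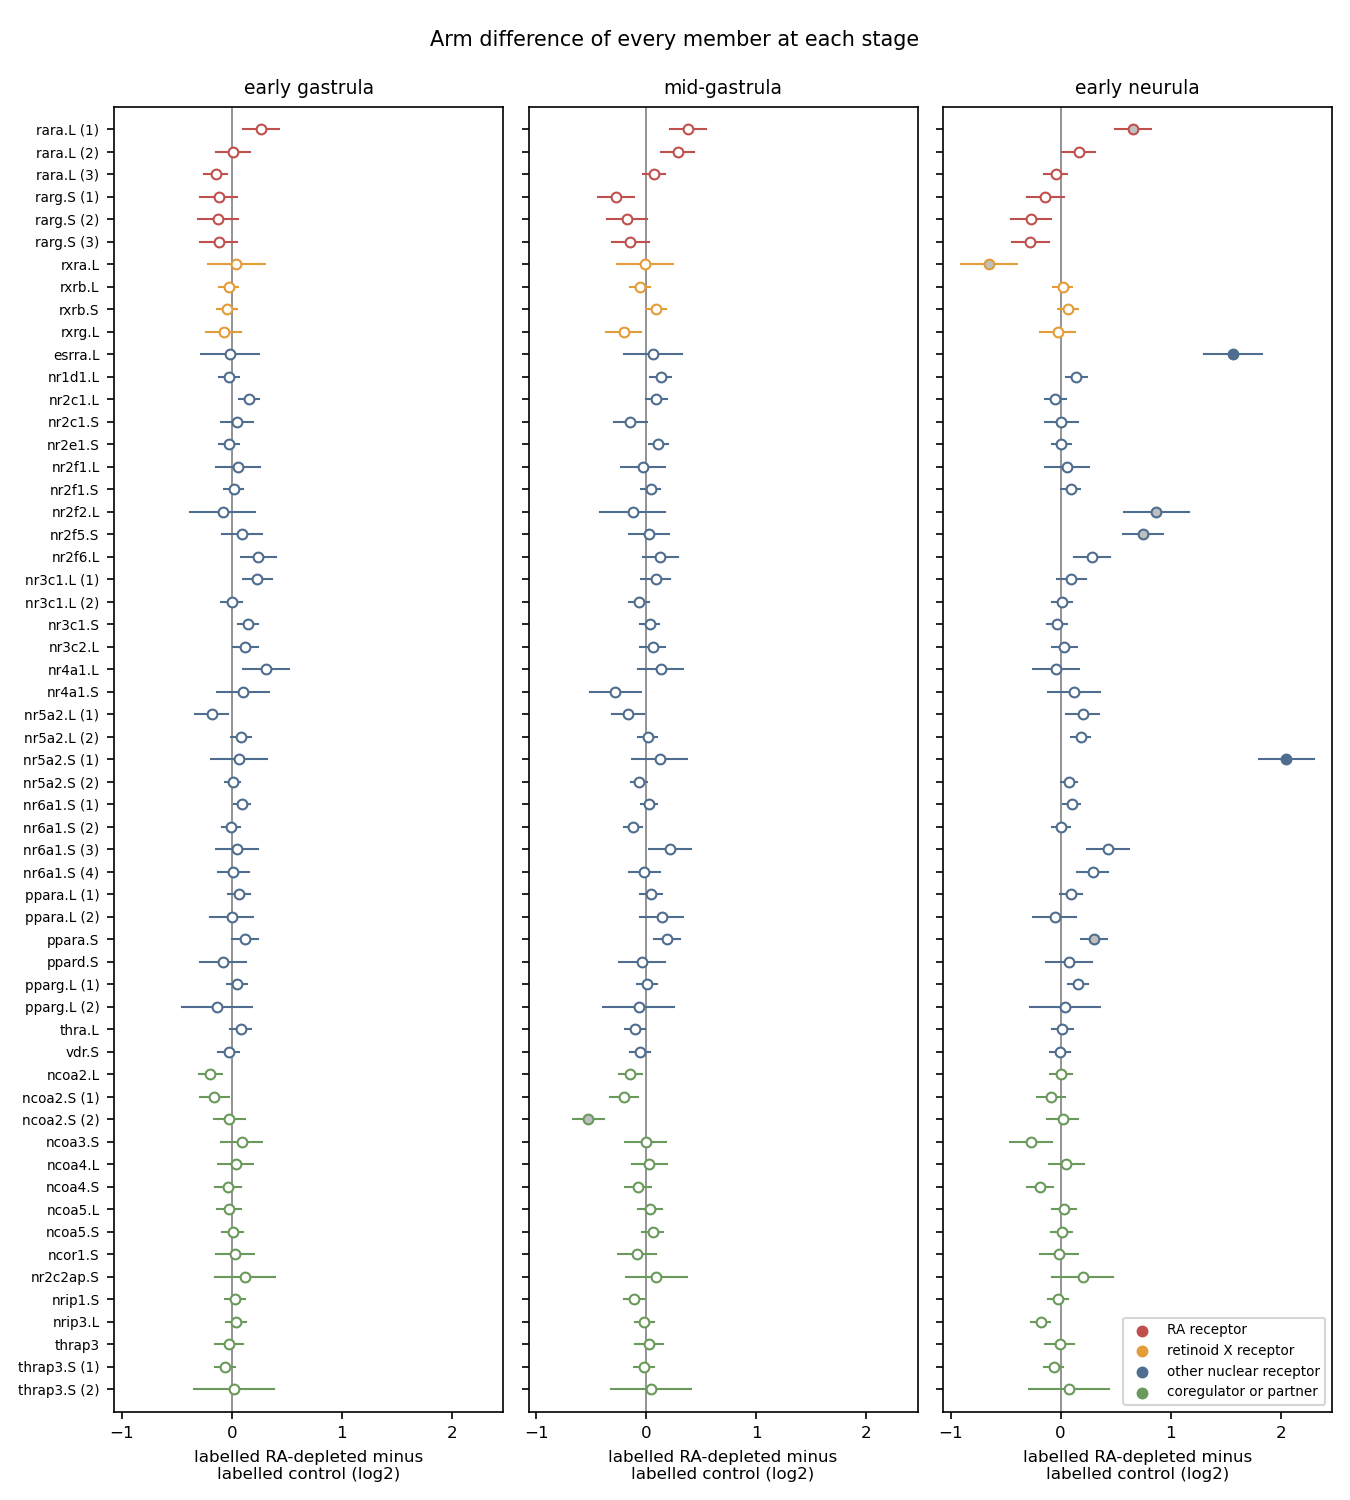
Difference in level (log2) between arrays labelled RA-depleted and labelled control for every member at each stage, grouped by class. Bars are 1 standard error of the fit without a block, filled points passed that fit and grey points passed only with same-numbered pairs as a block. Numbers in brackets count probe sets of 1 gene symbol. At early neurula nr5a2.S (2.05) and esrra.L (1.57) stand apart, and no member is filled at the earlier stages.

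The RA receptors themselves were measured by 3 probe sets of rara.L, RA receptor alpha, and 3 of rarg.S, RA receptor gamma. On the first of its probe sets rara.L read 7.61, 7.58 and 7.93 at early neurula on arrays labelled RA-depleted, against 7.02, 6.83 and 7.30 on arrays labelled control, so the arms did not overlap. The difference was 0.66 (SE 0.17, adjusted p = 0.151), which was a 1.58-fold difference, and its adjusted p was 0.00269 with the replicate number as a block and 0.00057 with pairs as a block. On this probe set rara.L was already higher in all 3 pairs at early gastrula (difference 0.27) and at mid-gastrula (0.38), 9 of 9 pairs in all. At early gastrula it was dim, at 3.71 to 4.18 on every array, so little can be read from that difference. The share of all probe sets with 1 direction in all 9 pairs was not counted, here or for rarg.S and ppara.S below. Averaged over the stages the difference was 0.43 (SE 0.10, adjusted p = 0.169; 0.00222 with the number block and 0.00061 with pairs). Whether the difference grew with stage was tested and not called (early neurula minus early gastrula 0.39, adjusted p = 1.00, and 0.113 with pairs).

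The other rara.L probe sets differed less. At mid-gastrula the second read 4.71, 4.89 and 5.31 on arrays labelled RA-depleted, against 4.56, 4.52 and 4.98 on arrays labelled control, so the arms overlapped although each pair was higher. Its difference of 0.29 was not called (adjusted p = 1.00, and 0.247 with pairs), and the third probe set, at 0.07, was not called either. At early gastrula the pair differences were 0.11, −0.05 and −0.03 for the second probe set and −0.20, −0.05 and −0.19 for the third. At early neurula they were 0.05, 0.01 and 0.44 for the second and 0.04, −0.15 and −0.03 for the third. Neither probe set was called at these stages. Both are dim, with every stage mean under 6.

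The rarg.S probe sets lay on the other side. At early neurula the s probe set read 11.58, 11.40 and 11.74 on arrays labelled RA-depleted, against 11.62, 11.72 and 12.18 on arrays labelled control. The arms overlapped, but the array labelled RA-depleted was the lower in each pair, as it was in all 9 pairs of the 3 stages. The difference was −0.27 (SE 0.18, adjusted p = 1.00, and 0.0712 with pairs). Averaged over the stages it was −0.19 (SE 0.10, adjusted p = 1.00), and 0.0403 with pairs, beside 1.53% of all probe sets called lower in that fit. The x probe set, whose probes can bind other transcripts, is annotated to the same sequence as the s probe set. It was also lower in 9 of 9 pairs but not called (−0.18, adjusted p with pairs 0.0746). The A probe set was lower in 7 of 9 (−0.18, adjusted p with pairs 0.114).

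Among the retinoid X receptors, the dimer partners of RA receptors, rxra.L moved with the arm and the others did not pass. At early neurula rxra.L read 5.77, 5.75 and 5.22 on arrays labelled RA-depleted, against 6.29, 6.53 and 5.87 on arrays labelled control. The arms did not overlap. The difference was −0.65 (SE 0.26, adjusted p = 0.691) and passed with pairs as a block (adjusted p = 0.00231), but not with the replicate number as a block (adjusted p = 0.151). At early gastrula the rxra.L difference was 0.04 and at mid-gastrula −0.01. At these stages it was dim, at 3.90 to 4.92 over the arrays, where a difference between arms could hardly be seen. The test between stages gave −0.69 for early neurula minus early gastrula (adjusted p with pairs 0.0271) and −0.64 for early neurula minus mid-gastrula (0.0444). The differences of rxrb.L, rxrb.S and rxrg.L at early neurula were 0.02, 0.07 and −0.03, each under 1 SE.

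**Figure D2:**
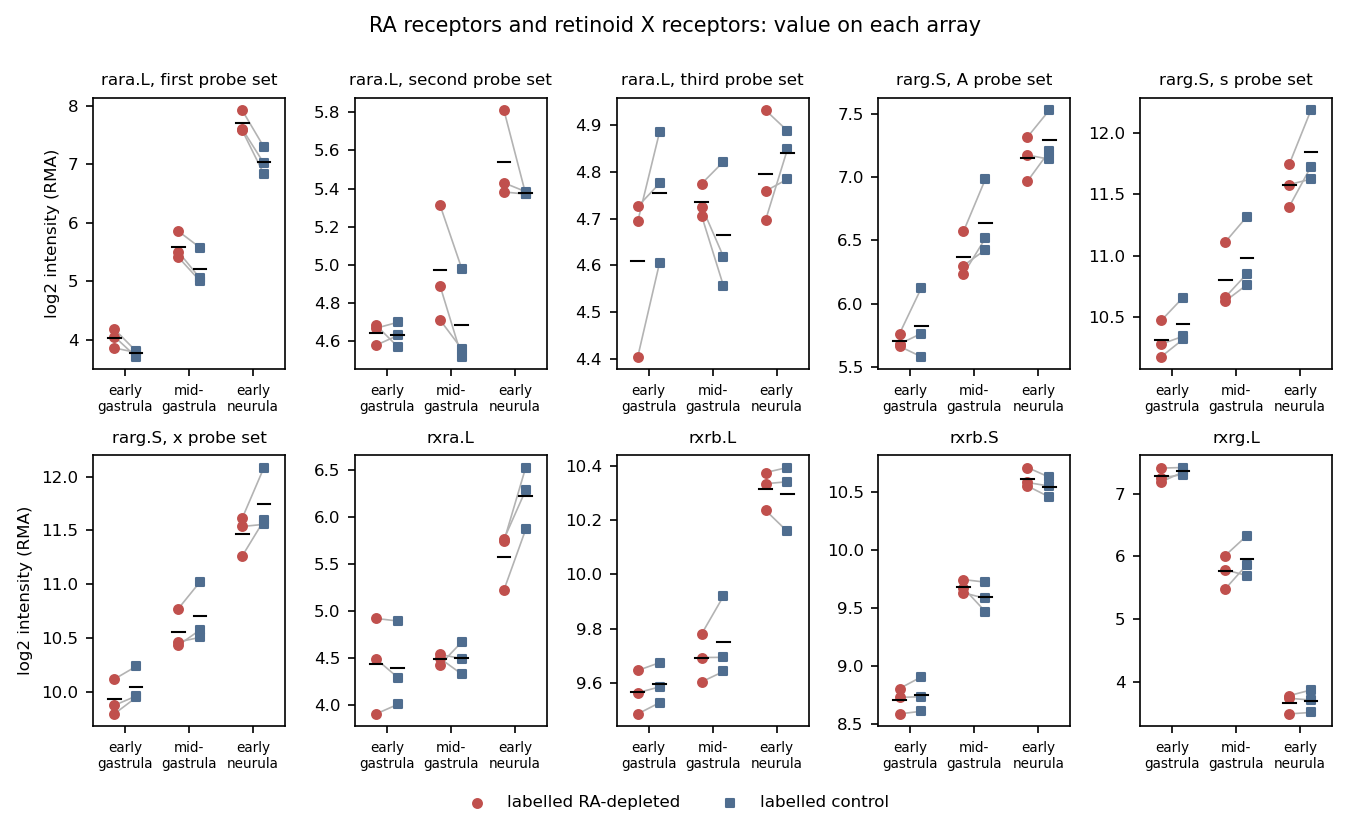
Level (log2 intensity) of each RA receptor and retinoid X receptor probe set on every array, by stage, with arrays labelled RA-depleted left of arrays labelled control. Grey lines join same-numbered arrays and black bars are means of 3. The first rara.L probe set is higher in labelled RA-depleted in all 9 pairs, the rarg.S s and x probe sets are lower in all 9, and rxrg.L reads 3.49 to 3.87 at early neurula.

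The nr5a2.S result was the largest arm difference of any member. Nr5a2, also called LRH-1, is an orphan receptor of the FTZ-F1 group that acts as a monomer. The first of its probe sets read 6.87, 6.35 and 7.86 at early neurula on arrays labelled RA-depleted, against 4.75, 5.01 and 5.16 on arrays labelled control. Every array labelled RA-depleted was more than 1 unit above every array labelled control. The difference was 2.05 (SE 0.25, adjusted p = 0.00105), or 4.15-fold, and its adjusted p was 0.00034 with the number block and 0.00017 with pairs. These fits share 1 estimate of the spread over all 6 groups, among them the gastrula groups, where this probe set was dim and varied little. With the neurula arrays fitted alone its adjusted p was 0.446, and 0.0453 with those in pairs.

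Before the neurula stage nr5a2.S was dim in both arms. It averaged 3.30 ± 0.07 at early gastrula in labelled RA-depleted and 3.23 ± 0.08 in labelled control, and 3.34 ± 0.11 at mid-gastrula in labelled RA-depleted and 3.21 ± 0.16 in labelled control (SD, n = 3 each). The arm difference was thus larger at early neurula than at mid-gastrula by 1.93 (SE 0.36), with an adjusted p of 0.0973 without a block, 0.0272 with the number block and 0.00768 with pairs. Against early gastrula it was larger by 1.99, with adjusted p values of 0.0705, 0.0175 and 0.00483 in the same order. The second nr5a2.S probe set stayed between 2.88 and 3.15 on all arrays. Both nr5a2.L probe sets were dim as well, at arm differences of 0.20 and 0.18 at early neurula that were not called.

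Esrra, the oestrogen-related receptor alpha, is an orphan receptor best known for control of mitochondrial genes. esrra.L read 8.04, 7.81 and 7.80 at early neurula on arrays labelled RA-depleted, against 6.89, 5.40 and 6.65 on arrays labelled control. The arms did not overlap, and the control values were spread widely, with replicate 2 well below the others. The difference was 1.57 (SE 0.27, adjusted p = 0.0122), or 2.96-fold, and 0.00158 with pairs. Without labelled RA-depleted replicate 1 it was 1.49 with an adjusted p of 0.0728, so the call was lost without that array. It was also lost with the neurula arrays fitted alone (adjusted p = 0.702, and 0.0984 with those in pairs). At early gastrula and mid-gastrula esrra.L read between 3.32 and 3.81 in both arms. The test of the change in arm difference gave 1.51 for early neurula minus mid-gastrula (adjusted p = 0.459, and 0.0364 with pairs).

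The nr2f group encodes the COUP transcription factors, orphan receptors that can compete with RA receptors for DNA sites and whose expression responds to RA in several vertebrates. nr2f2.L read 7.22, 6.47 and 7.83 at early neurula on arrays labelled RA-depleted, against 6.30, 5.66 and 6.94 on arrays labelled control. The arms overlapped, since replicates varied more than arms, but within pairs the difference was alike, at 0.92, 0.81 and 0.89. Its mean was 0.87 (SE 0.30, adjusted p = 0.473), and it was 0.54 without labelled RA-depleted replicate 3 and 0.55 without labelled control replicate 2. It was not called with the number block (adjusted p = 0.179) and it passed with pairs (adjusted p = 0.00053), where leaving out any 1 pair gave 0.85 to 0.90.

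nr2f5.S, another receptor of the COUP group, read 4.99, 4.72 and 5.56 at early neurula in labelled RA-depleted, against 4.18, 4.12 and 4.72 in labelled control. The arms overlapped at 4.72 alone, where 1 array of each arm read alike, and each pair was higher by 0.60 to 0.84. The difference was 0.75 (SE 0.18, adjusted p = 0.124), with adjusted p values of 0.0248 with the number block and 0.00107 with pairs. nr2f6.L was not called at 0.29 (adjusted p with pairs 0.172), although its arms did not overlap. nr2f1.L (0.06) and nr2f1.S (0.09) were dim and not called.

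At the earlier stages nr2f2.L (3.60 to 4.08) and nr2f5.S (3.31 to 3.89) were dim on every array, where a difference between arms could hardly be seen. The differences of nr2f2.L were −0.08 and −0.12 at the gastrula stages in time order, and those of nr2f5.S were 0.09 and 0.02. With pairs as a block, the arm difference of nr2f2.L was larger at early neurula than at mid-gastrula by 0.99 (adjusted p = 0.00711) and that of nr2f5.S by 0.73 (adjusted p = 0.0271). Without a block neither was called (adjusted p = 1.00 each).

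**Figure D3:**
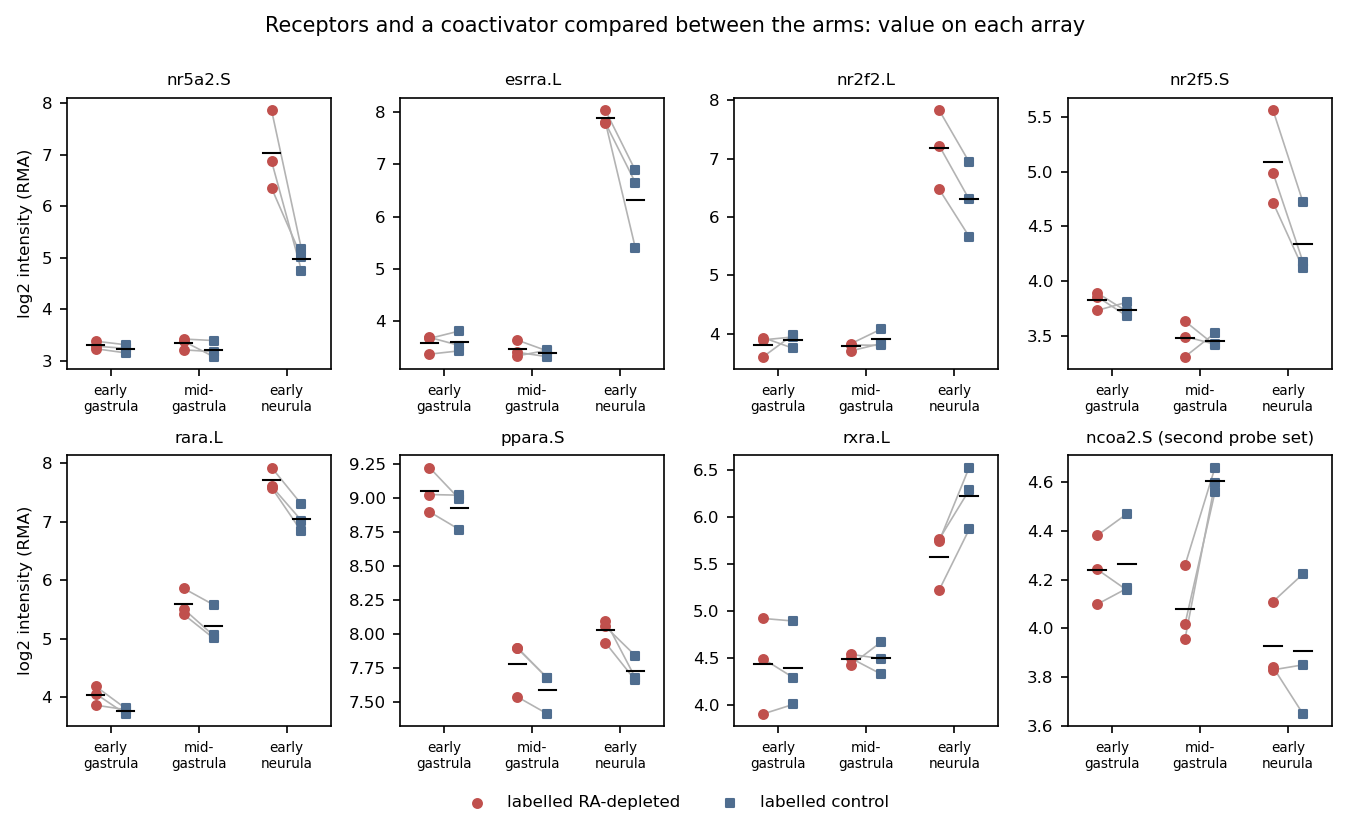
Level (log2 intensity) on each array, by stage, of the 8 probe sets called between arms at a stage in the fit without a block or with pairs as a block, with arrays labelled RA-depleted left of arrays labelled control. Grey lines join same-numbered arrays and black bars are means of 3. The lines of nr5a2.S, esrra.L, nr2f2.L, nr2f5.S and rara.L all slope down to the control side at early neurula, and those of rxra.L slope up.

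The PPAR receptors, which read fatty acids, gave 1 small difference. ppara.S read 7.94, 8.06 and 8.10 at early neurula on arrays labelled RA-depleted, against 7.66, 7.84 and 7.68 on arrays labelled control. The arms did not overlap, and labelled RA-depleted was higher in all 9 pairs of the 3 stages. The difference at early neurula was 0.30 (SE 0.12, adjusted p = 0.670, and 0.0252 with pairs), and it lost the call under pairs when any of the 3 neurula pairs was left out (adjusted p = 0.0814, 0.0535 and 0.113). Averaged over the stages it was 0.20 (adjusted p = 0.743, and 0.0166 with pairs). The probe sets of ppara.L, ppard.S and pparg.L had differences between −0.05 and 0.16 at early neurula and were not called.

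No steroid, thyroid or vitamin D receptor was called between arms at any stage in any of the 3 fits. At early neurula the differences were 0.10 and 0.01 for the probe sets of nr3c1.L and −0.03 for nr3c1.S, the glucocorticoid receptor, and 0.03 for nr3c2.L, the mineralocorticoid receptor. They were 0.01 for thra.L, thyroid hormone receptor alpha, and −0.01 for vdr.S, the vitamin D receptor, which stayed under 4 on all arrays. The immediate-early orphan receptor nr4a1.L differed by −0.04 and nr4a1.S by 0.12. The third probe set of nr6a1.S, the germ cell nuclear factor, was not called at 0.43 (adjusted p with pairs 0.126), although its arms did not overlap.

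Coregulators gave 1 call between the arms at a single stage, that of the second ncoa2.S probe set at mid-gastrula with pairs, whose difference was the largest in size of any member at mid-gastrula. Their 15 probe sets gave 0 calls at early gastrula and at early neurula in any of the 3 fits. No difference was above 0.27 in size at early neurula. Over all probe sets 0.373% were called higher and 0.0523% lower at early neurula without a block, and 2.47% and 1.86% with pairs. At shares this low 0 calls of 15 say little about coregulators. ncoa3.S, a p160 coactivator, read 9.03, 9.03 and 9.15 at early neurula in labelled RA-depleted, against 9.27, 9.27 and 9.48 in labelled control. The arms did not overlap, and the difference was −0.27 (adjusted p = 1.00, and 0.0701 with pairs). ncor1.S, the corepressor of unliganded RA receptors, differed by 0.03, −0.08 and −0.01 at the 3 stages in time order, each under its SE of 0.17. Its arrays ran between 7.07 and 7.34 at early neurula in labelled RA-depleted and between 7.17 and 7.41 in labelled control. nrip1.S, a corepressor of ligand-bound receptors, stayed under 3.3 on every array.

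A list of receptor partner complexes outside the symbol rule, such as histone deacetylases and Mediator subunits, was read for comparison. Of its 29 homeologs 0 were called between arms at any stage, with or without the number block. Their median difference at early neurula was −0.01. Over all probe sets 0.373% were called higher and 0.0523% lower at early neurula without a block, and 0.81% and 0.329% with it. The pair fit, which gave most of the member calls, was not read here, so the 0 cannot be set against those. Genes of RA synthesis, breakdown and binding gave 1 call in each direction of 20 homeologs at early neurula. dhrs3.L, a retinal reductase that responds to RA, was higher by 2.98 (SE 0.20, adjusted p = 2.42e-06). cyp26a1.S was lower by 4.14 on the log2 scale, at −4.14 (SE 0.23), while cyp26a1.L was higher by 1.53 (SE 0.34). The cyp26a1.S value is that of the probe set that went against the arm labels. The cyp26a1.L difference was called with the number block (adjusted p = 0.00135) and not without a block. The fit with pairs was read for none of the gene lists. The RA-making enzyme aldh1a2.L differed by 0.10 and was not called.

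Among 18 homeologs of genes described as RA-responsive, 3 were called higher and 1 lower at early neurula, and 6 and 1 with the number block. The higher ones were dhrs3.L, hoxa3.S (0.86) and znf703.S (0.71), and the lower one was cyp26a1.S. Because cyp26 RNA was injected, the cyp26a1.S difference cannot be read as a response to RA. The other cyp26a1.S probe set, which the list leaves out, lay the other way. The list was chosen with results of these arrays known, so its direction is not independent evidence.

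Tissue markers were read between the arms as well. At the gastrula stages none of the lists had a call. At each of these stages 2 of 19 endoderm homeologs lay above 0 (median differences −0.22 and −0.21). So did 5 and 3 of 21 lateral and intermediate mesoderm homeologs (medians −0.09 at each). At mid-gastrula 15 of 18 epidermis (median 0.39), 12 of 15 organizer (0.28) and 16 of 21 paraxial mesoderm homeologs (0.21) lay above 0. The neural plate list was near an even split, with 7 of 13 above 0 (0.10). At early gastrula these medians were 0.05, 0.11, 0.05 and 0.05 in the same order. At mid-gastrula the mean level of the epidermis list was 4.82 to 5.80 over arrays labelled RA-depleted, against 4.66 to 4.81 in labelled control. The group mean of 5.16 in labelled RA-depleted lies nearer its lowest array, so the epidermis lean may rest largely on 1 array. At early neurula 2 of 21 lateral and intermediate mesoderm homeologs were called higher, lhx1.L (1.998) and mecom.L (1.12), and the summed intensity of the list was 4975 to 6286 in labelled RA-depleted against 4173 to 4436 in labelled control. The paraxial mesoderm and muscle list had 1 of 21 called, pgam2.L (1.98), and sums of 32454 to 33066 against 25581 to 33206. Of the endoderm homeologs 0 of 19 were called, and likewise 0 of 13 for neural plate and 0 of 18 for epidermis. The organizer and axial mesoderm list had 1 of 15 called, lhx1.L again. These calls are without a block. With the number block 3 lateral and intermediate mesoderm, 2 paraxial mesoderm, 1 endoderm, 1 neural plate and 1 organizer homeologs were called higher. Epidermis had 0, no list had a call lower, and 0.81% of all probe sets were called higher in that fit. The part of tissue makeup in the receptor differences was not tested.

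Averaged over the 3 stages, 0 members were called between arms without a block, beside 0.0801% of all probe sets called higher and 0.00616% called lower, and 7 members had an unadjusted p under 0.05. With the number block nr5a2.S and rara.L were called, beside 0.299% of all probe sets higher and 0.228% lower. With pairs 5 were higher (nr5a2.S, esrra.L, rara.L, nr2f5.S and ppara.S) and 1 probe set of rarg.S was lower, beside 1.31% and 1.53%. The mean of 0.75 for nr5a2.S is made of 0.06, 0.12 and 2.05 at the stages in time order, and that of 0.54 for esrra.L of −0.02, 0.06 and 1.57. No change of arm difference between early gastrula and mid-gastrula was called for any member in any of the 3 fits.

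The change of arm difference up to early neurula was called for 0 members without a block from either gastrula stage, beside 0.0554% of all probe sets called as larger from mid-gastrula and 0.0708% from early gastrula, and 0.00308% called as smaller from each. With the number block nr5a2.S alone was called, beside 0.142% larger and 0.0216% smaller from mid-gastrula and 0.172% and 0.0185% from early gastrula. With pairs as a block the step from mid-gastrula gave 5 members larger and 1 smaller, beside 0.671% and 0.249% of all probe sets. The larger ones were nr5a2.S, esrra.L, nr2f2.L, nr2f5.S and the second ncoa2.S probe set (0.55, adjusted p = 0.0406), and the smaller one was rxra.L. The step from early gastrula gave 4 larger and 1 smaller, beside 0.862% and 0.348%, and these were the same members without ncoa2.S. That ncoa2.S probe set read 3.83, 3.84 and 4.11 at early neurula in labelled RA-depleted, against 3.85, 3.65 and 4.22 in labelled control, so the difference of mid-gastrula was no longer seen.

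The stage steps were larger in size than the arm differences. The median size of a member's difference was 0.27 for the first step and 0.50 for the second, against 0.06, 0.08 and 0.08 between arms at the stages in time order. Over all probe sets these medians were much the same, at 0.27 and 0.41 for the steps and 0.06, 0.07 and 0.08 between arms. Stage differences were taken on the mean of the arms, which does not depend on which arm carries which label, after quantile normalization over all 18 arrays, because array medians differed between early gastrula and the later stages; levels on single arrays are as deposited. The 2 stage steps share the mid-gastrula arrays, so they are not independent of each other. Neurula explants were kept at 14 °C and gastrula explants at 20 °C. In the second step stage, temperature and time in culture therefore cannot be told apart.

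From early gastrula to mid-gastrula 20 members rose and 14 fell, beside 25.9% and 29.7% of all probe sets. The median over members was 0.06, against −0.01 over all probe sets. This split depended on the scale: on the deposited values 11 rose and 21 fell, beside 15.4% and 47.2% of all probe sets, and after centring each array on its median 32 rose and 14 fell, beside 48.2% and 21.2%. The median of all probe sets was −0.19 on the deposited values and 0.20 after centring. On all 3 scales 11 members rose and 14 fell, and the share of all probe sets that did so was not counted.

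From mid-gastrula to early neurula 28 members rose and 11 fell, beside 33.6% and 35.6% of all probe sets. The median over members was 0.15, against −0.02 over all probe sets. On the deposited values 31 rose and 10 fell, beside 39.4% and 30.8% of all probe sets. After centring the members' counts were the same, beside 39.7% and 30.5%. On all 3 scales 28 rose and 10 fell, again with no share over all probe sets counted.

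**Figure D4:**
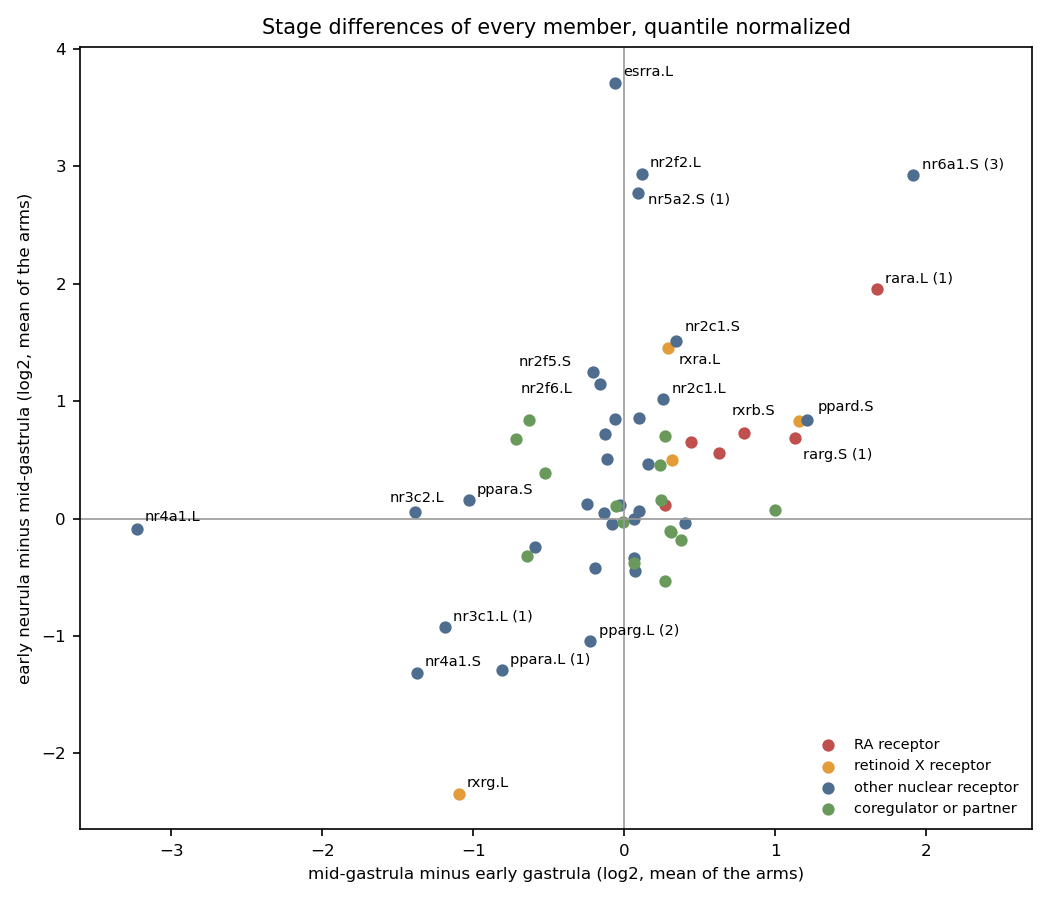
Difference between mid-gastrula and early gastrula (horizontal) and between early neurula and mid-gastrula (vertical) for each member, on the log2 scale after quantile normalization, averaged over the arms. Members that move by at least 1 in either step are named, numbers in brackets count probe sets of 1 gene symbol, and both axes use the same mid-gastrula arrays. esrra.L, nr2f2.L and nr5a2.S lie near 0 on the first step and between 2.77 and 3.71 on the second.

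Of the 6 RA receptor probe sets, which read 2 genes, 6 rose in the first step, 4 of them on all 3 scales. In the second step 5 rose, the third rara.L probe set not being called. Over all probe sets 25.9% rose in the first step and 33.6% in the second. On the first of its probe sets the 6 early gastrula arrays read rara.L at 3.71 to 4.18, the mid-gastrula arrays at 5.01 to 5.86 and the neurula arrays at 6.83 to 7.93, with no overlap between stages. The rise was 1.67 (SE 0.11, adjusted p = 7.7e-09) up to mid-gastrula and 1.95 (SE 0.11, adjusted p = 4.9e-10) up to early neurula. All 3 rarg.S probe sets rose in each step, by 0.63 to 1.13 and then by 0.56 to 0.73. The smaller early rises of the other rara.L probe sets (0.44 and 0.27) were not called on the deposited values.

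The retinoid X receptors split. rxrg.L, retinoid X receptor gamma, read 7.19 to 7.42 on early gastrula arrays, 5.48 to 6.33 on mid-gastrula arrays and 3.49 to 3.87 on neurula arrays. It fell by 1.10 on the log2 scale in the first step and by 2.34 in the second, with no overlap between stages. rxrb.S rose by 1.15 and 0.83 and rxrb.L by 0.31 and 0.50, the first rxrb.L rise not being called on the deposited values. rxra.L was not called in the first step and rose by 1.45 (SE 0.17) in the second.

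Several orphan receptors were dim through gastrulation and rose at early neurula. esrra.L rose by 3.71 (SE 0.19, adjusted p = 1.4e-10), nr2f2.L by 2.94 (SE 0.20) and nr5a2.S by 2.77 (SE 0.17). All their mid-gastrula arrays were dim, so these log2 differences may understate the change. Early neurula was above mid-gastrula for nr5a2.S by 3.72 in labelled RA-depleted and by 1.82 in labelled control, and for esrra.L by 4.43 in labelled RA-depleted and by 2.99 in labelled control. nr2f5.S rose by 1.25, nr2f6.L by 1.14, and nr1d1.L, the circadian repressor Rev-erb alpha, by 0.72. nr2c1, the orphan receptor TR2, rose on both homeologs, nr2c1.S by 1.51 and nr2c1.L by 1.02. nr2f1.S fell by 0.33, under 4 on every array, and nr2f1.L was not called.

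nr6a1.S was read by 4 probe sets. The third read 4.61 to 5.19 on early gastrula arrays, 6.08 to 6.97 on mid-gastrula arrays and 9.22 to 9.93 on neurula arrays. It rose by 1.91 (SE 0.13) and 2.93 (SE 0.13). The other probe sets stayed under 5.4 on every array; at early neurula they rose by 0.13, 0.50 and 0.85, and the first of them had fallen by 0.25 at mid-gastrula.

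Other receptors were high at early gastrula and fell. nr4a1.L, an immediate-early gene in many cell types, read 7.99 to 8.86 on early gastrula arrays, 4.40 to 5.23 on mid-gastrula arrays and 4.51 to 4.87 on neurula arrays. It fell by 3.23 (SE 0.16, adjusted p = 2.5e-10) in the first step, the largest stage difference downward among the members, and was not called in the second. nr4a1.S fell by 1.37 and then by 1.31. Early gastrula arrays were collected 1 h after explants were cut, so stage and time since dissection cannot be told apart.

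The steroid receptor nr3c2.L fell by 1.38 in the first step and nr3c1.L by 1.19 and then 0.92 on its first probe set. thra.L fell by 0.19 and 0.42. pparg.L fell by 1.04 and 0.45 on its probe sets in the second step alone. ppara.S fell by 1.03 in the first step. ppard.S rose by 1.21 and 0.84. vdr.S and nr2e1.S, the tailless homologue, were dim and not called in either step.

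Coregulators gave 7 rises and 4 falls up to mid-gastrula among 15 probe sets, and 5 rises and 2 falls up to early neurula. Over all probe sets the shares were 25.9% and 29.7% in the first step and 33.6% and 35.6% in the second. On all 3 scales the first step kept 3 of these rises and all 4 falls. ncoa2.S rose by 1.00 on its first probe set in the first step. ncoa3.S fell by 0.72 and then rose by 0.67, and ncor1.S fell by 0.52 and then rose by 0.38. ncoa5.L rose by 0.70 at early neurula. nrip3.L fell by 0.38, with every array under 5. The first thrap3.S probe set rose by 0.30 at mid-gastrula, and nr2c2ap.S, a protein named for binding the orphan receptor TR4, fell by 0.64.

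Among the members, homeologs of 1 gene did not always move together. How often homeologs of other genes on the array moved together was not counted. Of 10 genes with both homeologs measured, all probe sets moved in 1 direction in the first step for 5 (ncoa2, ncoa5, nr2c1, nr4a1 and rxrb) and in opposite directions for ncoa4. Of the 5, nr4a1 alone was called on both homeologs on the deposited values as well. The first-step rises of ncoa2.L and nr2c1.L turned to −0.06 and −0.13 on the deposited values, where they were not called. ncoa4.L, an ncoa also known as a ferritin receptor, read 7.38 to 7.88 at early gastrula and 6.42 to 6.89 at mid-gastrula, a fall of 0.63. ncoa4.S read 9.58 to 9.80 and then 9.59 to 10.03, a rise of 0.38.

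In the second step homeologs moved in opposite directions for nr3c1, and together for nr2c1 and rxrb. For ncoa2 the opposite directions rested on 1 ncoa2.S probe set. nr3c1.L fell by 0.92 on its first probe set to 3.36 to 3.88, while nr3c1.S rose by 0.86 to 4.03 to 4.38, still dim. ncoa2.L rose by 0.46 and the second ncoa2.S probe set fell by 0.53, also among dim values. The first ncoa2.S probe set, at 6.11 to 6.68 on mid-gastrula arrays, was not called in this step. The probe sets of ppara.L disagreed as well: the first fell by 1.29 and the second rose by 0.47 in the same step.

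**Figure D5:**
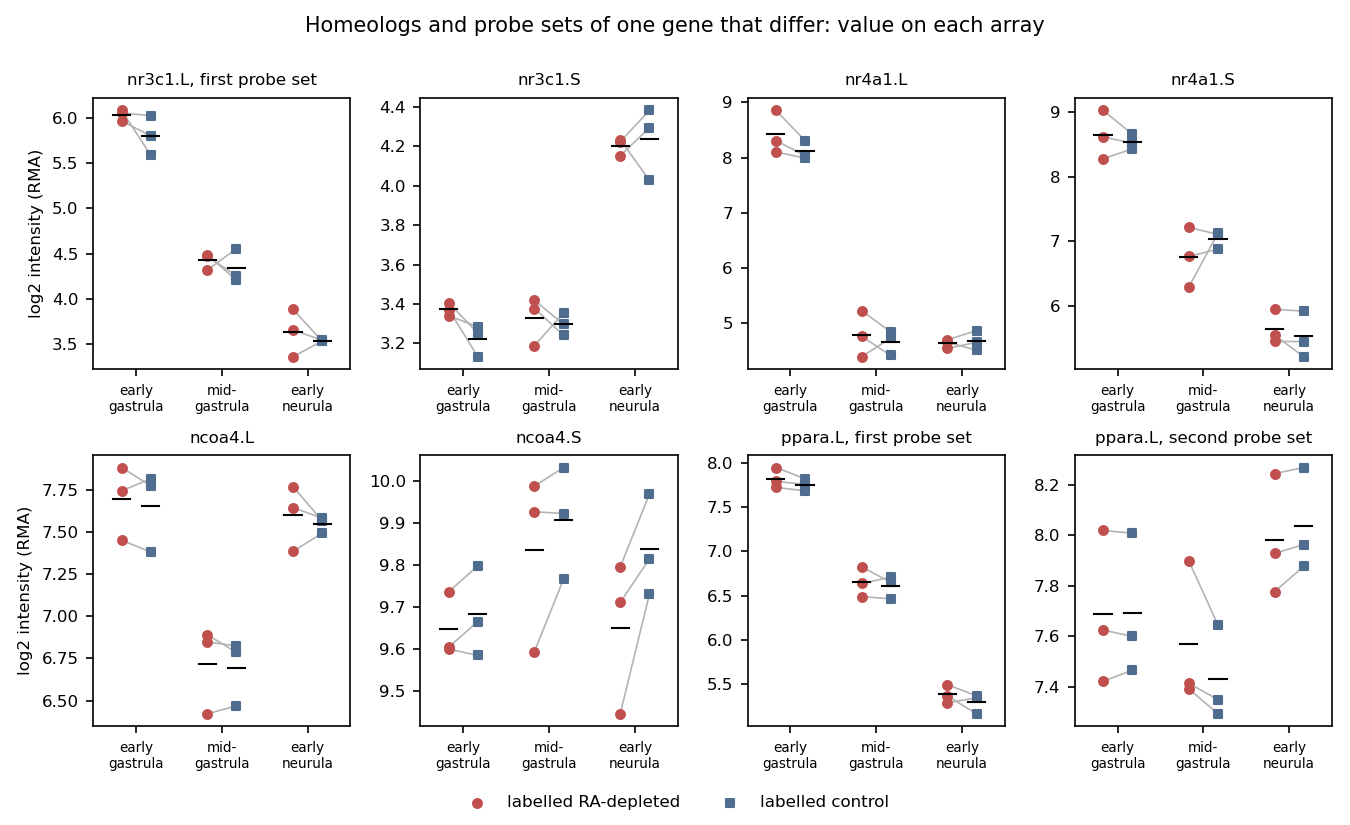
Level (log2 intensity) on each array, by stage, for homeologs or probe sets of 1 gene whose stage differences were unlike each other, with arrays labelled RA-depleted left of arrays labelled control. Grey lines join same-numbered arrays and black bars are means of 3. Vertical axes differ between panels, nr3c1.L falls while nr3c1.S rises, and nr4a1.L reaches its low level by mid-gastrula while nr4a1.S goes on falling.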

How the data were processed

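RNA of 18 explant samples was hybridised, from 6 µg total RNA each, to single-colour Affymetrix Xenopus laevis arrays. The authors deposited log2 values; the submitters' processing notes name RMA and the affy package; versions, and whether all arrays were normalized together, are not given in the sources used here. Of 32635 deposited probe sets, 160 controls were left out. Genes were named from the platform annotation: 15495 probe sets carry 1 symbol, 279 several and 16701 none. Of the 57 members 56 matched RefSeq by Entrez ID, used for names only.

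From these values limma 3.58.1 in R 4.3.3 fitted the 6 group means over all probe sets, with Benjamini-Hochberg adjustment over all 32475 and a threshold of 0.05. The code was tested on simulated data. Arm contrasts used the deposited values, and stage contrasts used values quantile normalized again over the 18 arrays. Same-numbered arrays of the arms deviated together from their group means (r of 0.83 to 0.84, 0.73 to 0.78 and 0.64 to 0.74 for the stages in time order), as did those of different stages (0.36 to 0.69), so the numbers, which come from the sample titles, were taken to pair the arrays. Arms were also fitted with the replicate number as a block, and with each same-numbered pair within a stage as a block. These fits are given where they change a call of a member between the arms. For the stage steps the fit with the number block is not given here. Alternatives were a filter for probe sets of at least 6 on 3 or more arrays, other scalings, a mean trend with robust variances, single stages and leaving out arrays. Replicates are called biological in the titles with no further detail, so p-values measure the spread between these arrays, and their number limits precision. Probe sets of 1 symbol are numbered in order of their identifiers.

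The members and gene lists were chosen with earlier results of these data known. Members were named where called in a contrast, where they belong to a fixed panel of receptors and coregulators, or where among the 3 highest or lowest arm differences.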

Additional observations from a re-analysis of the deposited data

Results flagged for a closer look

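The arm difference of 6 members changed with stage in a test of that change with same-numbered pairs as a block, and none of them passed it without a block. With pairs 0.862% of all probe sets were called as larger and 0.348% as smaller from early gastrula, and 0.671% and 0.249% from mid-gastrula. Between early neurula and early gastrula the change, as labelled RA-depleted minus labelled control at the later stage less the same at the earlier one, was 1.99 for nr5a2.S (adjusted p with pairs 0.00483, without 0.0705). It was 1.58 for esrra.L (0.0248 and 0.308), 0.95 for nr2f2.L (0.00669 and 1.00), 0.66 for nr2f5.S (0.0359 and 1.00) and −0.69 for rxra.L (0.0271 and 1.00).

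Between early neurula and mid-gastrula the change was 1.93 for nr5a2.S (adjusted p with pairs 0.00768, without 0.0973) and 1.51 for esrra.L (0.0364 and 0.459). It was 0.99 for nr2f2.L (0.00711 and 1.00), 0.73 for nr2f5.S (0.0271 and 1.00), 0.55 for the second ncoa2.S probe set (0.0406 and 1.00) and −0.64 for rxra.L (0.0444 and 1.00). Both tests use the early neurula arrays. For nr5a2.S, esrra.L, nr2f2.L and nr2f5.S every pair at early neurula was higher in labelled RA-depleted, and for rxra.L every pair was lower. In groups of 3 arrays no single array was tested as an outlier.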

How the results depend on the processing

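Counts of members called between arms, as printed here over both directions, depended mainly on the replicate block. Shares over all probe sets rose with it too. At early neurula 0.373% were called higher and 0.0523% lower without a block. These were 0.81% and 0.329% with the replicate number as a block, and 2.47% and 1.86% with pairs. At early neurula the count of 2 became 4 with the replicate number as a block, 7 with pairs as a replicate block and 0 with the neurula arrays alone, or 5 with those in pairs. With pairs and without replicate 1, 2 or 3 of both arms it was 8, 6 and 6, and without single arrays it ran from 1 to 3. Shares over all probe sets are not given here for the neurula arrays alone or with arrays left out. At mid-gastrula the count of 0 became 1 with pairs. Averaged over stages it became 2 with the number block and 6 with pairs, and 0 to 1 without single arrays. The change from mid-gastrula became 1 and 6, and that from early gastrula 1 and 5, each 0 to 1 without single arrays. The pair block changed no other call of an arm difference beyond those named. esrra.L kept its neurula call except without labelled RA-depleted replicate 1 (adjusted p = 0.0728) and with the neurula arrays alone (0.702, and 0.0984 in pairs). nr2f5.S was called without some single arrays (adjusted p 0.0238 to 0.481).

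Stage counts of 34 and 39 ran from 32 to 34 and from 38 to 40 without single arrays. The filter on dim probe sets left 22 of the second, because only 30 members passed it. On the deposited values the first-step difference was −0.063 for ncoa2.L, −0.13 for nr2c1.L and −0.19 for the second ppara.L probe set, against higher values after renormalization. For the first thrap3.S probe set the second step was 0.066 on the deposited values and 0.071 after centring, against −0.10. For members called in a comparison with or without a block, 1790 alternatives left direction and call as they were, 76 added a call, 40 lost one and 5, those just given, turned the sign. Over all 57 members, called or not, the sign turned for 8 on the deposited values and 10 after centring in the first step, and for 6 on each in the second. Probe sets under about 5 on every array limit what can be said of 17 members.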
